A study of Saccharomyces cerevisiae with 61 samples.

Results

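The recovery of DNA with an antibody to Top2 was compared between meiotic budding yeast cells of a rec8 mutant and wild-type (WT) cells. The data are 10 spike-in libraries of 5 cultures, taken from the 61 samples of the series by their titles. For reference, 3 WT cultures collected at 0 h and 2 cultures of a spo11 mutant collected at 3 h, prepared in the same way at 30 °C, are also given. Both rec8 cultures and all 3 WT cultures were collected after 3 h in sporulation medium at 30 °C. All these cultures are of the SK1 background, a strain that enters meiosis with high synchrony. The labels call the mutant rec8 and give it a strain number of its own, without naming the allele or any other difference from the WT strain. Each culture gave 1 Top2 ChIP (chromatin immunoprecipitation) library and 1 input library, made from the same chromatin without antibody. All cultures received fixed meiotic cells of another strain, S288c, at 20% before immunoprecipitation. Reads were assigned to SK1 or S288c by the sequence differences between both genomes, and the values are read counts for each of the 16 nuclear chromosomes of each genome.

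Cohesin is a ring-shaped protein complex that holds sister chromatids together, and Rec8 is the subunit that replaces the mitotic kleisin in meiosis. In budding yeast meiosis, Rec8 also shapes the chromosome axis, from which chromatin loops extend and to which the recombination machinery is recruited. Top2, topoisomerase II, passes one DNA duplex through another and is abundant on meiotic chromosomes. The comparison asks how much Top2-bound DNA is recovered, and from which chromosomes, in a mutant of the meiotic cohesin subunit.

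Between 1220555 and 4266768 reads were assigned in each of the 10 libraries, and 229466 to 658800 of these were S288c reads. The largest half-width of the exact 95% interval of an S288c share was 0.0732 percentage points, which covers counting error only. The libraries came from 3 flow cells, lettered A to C here. Flow cell C held both rec8 cultures and WT replicate 3, while WT replicate 1 was on flow cell B and WT replicate 2 on flow cell A. Every count of WT replicate 1 was an even number, and its input stood apart from the others on some chromosomes. Chromosome I took 1.55% of its SK1 input reads, against 1.79% to 1.86% in the other 4 cultures, and chromosome XII took 11.2% of its S288c input reads, against 16.8% to 19.4%. WT replicate 3 carries the strain number of a spo11 mutant in 1 label, while its title and its description name the WT, which was followed.

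Genome-wide Top2 recovery from rec8 cells lay within the range of the WT cultures. The spike-in scaled ratio divides the ratio of SK1 to S288c reads in the ChIP by the same ratio in the paired input, so a value above 1 means that SK1 chromatin was recovered better than the added S288c chromatin. It was 1.38 in rec8 replicate 1 and 1.43 in rec8 replicate 2. The WT cultures gave 1.28 in replicate 1, 1.52 in replicate 2 and 1.20 in replicate 3. Both rec8 cultures thus stood above WT replicates 1 and 3 and below WT replicate 2, and the groups overlapped. The rec8 mean was 1.41 ± 0.030 (SD, n = 2) and the WT mean 1.33 ± 0.167 (SD, n = 3). On the log2 scale rec8 was higher by 0.086, a 1.06-fold difference. This is less than the pooled SD of 0.15, and a two-sided exact permutation test over cultures gave p = 0.6. The smallest p that 2 against 3 cultures allow in this test is 0.2. The 6 rec8 to WT pairs ranged from 0.912-fold to 1.19-fold. The counting error of 1 log2 ratio was at most 0.0046, far below the spread between WT cultures.

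The parts of the ratio, the input and the ChIP, did not overlap between the groups, while the ratio itself did. In the input libraries, SK1 to S288c reads stood at 2.94 and 3.60 in rec8 and 4.29, 4.10 and 4.34 in WT replicates 1 to 3. Both rec8 inputs lay below every WT input at 3 h. The input of the spo11 culture on flow cell C, at 3.51, did so too, while that on flow cell B, at 4.46, lay above them. As a share of input reads, S288c made up 25.4% and 21.7% in rec8 and 18.7% to 19.6% in WT, beside the 20% of cells that the labels state. The input log2 difference was -0.38, or 0.768-fold, with pairs between 0.678-fold and 0.878-fold (two-sided exact permutation test, p = 0.2, the smallest possible). Fewer SK1 cells, less DNA per SK1 cell and more added S288c cells cannot be told apart in these counts.

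The ChIP libraries moved the same way. Their ratio was 4.07 and 5.14 in rec8 and 5.48, 6.23 and 5.19 in WT replicates 1 to 3. Both rec8 values lay below all WT values, the higher one by a small margin of 0.990-fold against WT replicate 3. The spo11 culture on flow cell C, at 5.17, also lay below all WT values, while that on flow cell B, at 5.59, lay within their range. The mean log2 difference was -0.30, or 0.815-fold (two-sided exact permutation test, p = 0.2, the smallest possible). Without chromosome XII, whose S288c share varied between cultures, the ChIP ratios of the groups overlapped, at 4.69 and 5.97 in rec8 and 5.70 to 7.36 in WT. Dividing by the input therefore turned the direction, from a lower uncorrected recovery in rec8 to the slightly higher corrected one. Over the 9 exact permutation tests on cultures, the lowest Benjamini-Hochberg adjusted p was 0.3.

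**Figure D1:**
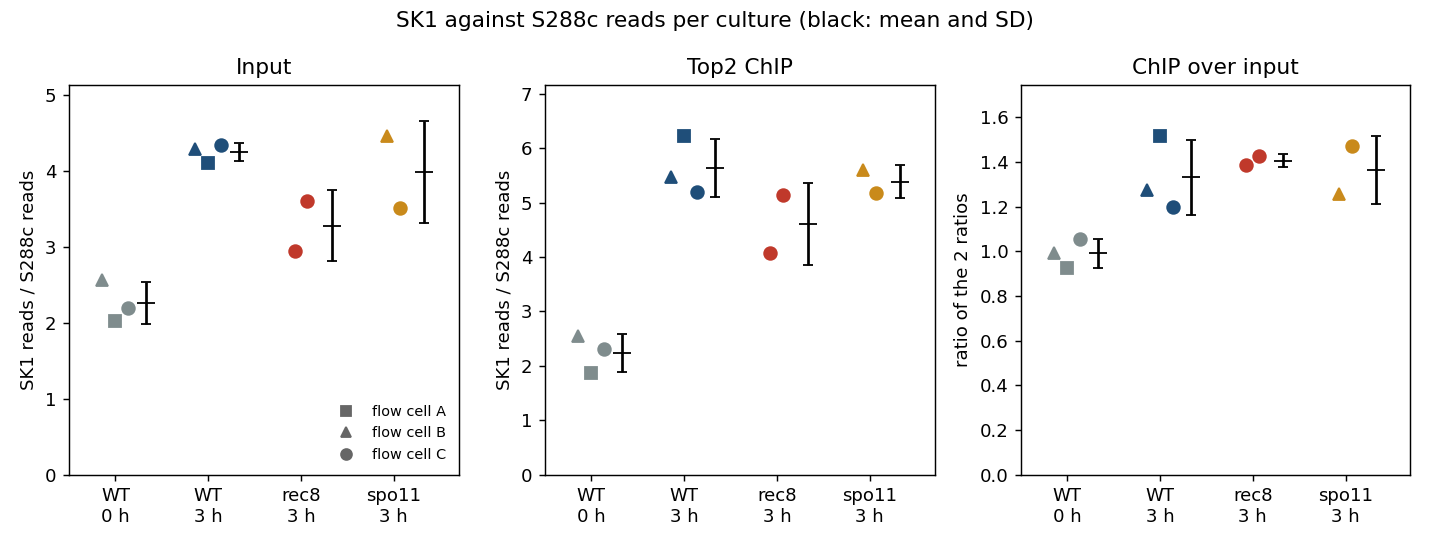
SK1 to S288c read ratio in the input (left), in the Top2 ChIP (middle) and the ChIP ratio over the input ratio (right) for each culture. Symbols give the flow cell, and black marks give the mean and SD of each group. Both rec8 inputs (2.94 and 3.60) lie below the WT 3 h inputs (4.10 to 4.34), while the corrected rec8 ratios (1.38 and 1.43) lie within the WT 3 h range (1.20 to 1.52).

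Within flow cell C the order was clearer but rested on 1 WT culture. There the corrected ratio was 1.38 and 1.43 in rec8 and 1.20 in WT replicate 3, so that both rec8 cultures were higher, by 0.21 and 0.25 on the log2 scale. The mean difference of 0.23 exceeded the difference of 0.043 between the rec8 cultures, but the WT has no replicate on this flow cell and the spread between WT cultures, an SD of 0.18 on the log2 scale, was close to it. The input log2 difference on this flow cell was -0.41 and the ChIP log2 difference was -0.18. The spo11 culture on flow cell C also had a higher corrected ratio than WT replicate 3, by 0.297 on the log2 scale. With WT replicate 2 left out, both rec8 cultures also stood above the 2 remaining WT cultures, with a log2 difference of 0.18. The placing of rec8 against WT therefore turned on WT replicate 2, the only one of these 5 cultures on flow cell A. Flow cell and culture cannot be told apart for that value.

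Against the WT cultures collected at 0 h, when cells were transferred to sporulation medium, rec8 at 3 h was higher. Their corrected ratios were 0.992, 0.924 and 1.05, all below both rec8 values. The log2 difference was 0.51, or 1.42-fold, with pairs from 1.31-fold to 1.54-fold (two-sided exact permutation test, p = 0.2, the smallest possible, n = 2 against 3). Genotype and time both differ in this contrast. On flow cell C alone, WT at 0 h gave 1.05 and WT at 3 h gave 1.20, both below the rec8 cultures. The WT 0 h culture of flow cell C carries a 3 h tag in 1 label, and its title was followed. SPO11 encodes the topoisomerase-like protein behind meiotic double-strand breaks, and spo11 cultures at 3 h gave 1.25 on flow cell B and 1.47 on flow cell C. The rec8 values lay between them, with a log2 difference of 0.049 (two-sided exact permutation test, p = 1, n = 2 against 2), and pairs ran from 0.941-fold to 1.14-fold.

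Chromosome by chromosome, SK1 recovery scaled to the S288c counterpart passed no test between the groups. On each of the 16 chromosomes the rec8 and WT cultures overlapped. In edgeR's quasi-likelihood test of the 5 cultures, 0 of 16 chromosomes had an adjusted p below 0.05 (a background of 0%), 0 had an unadjusted p below 0.05, and the lowest adjusted p was 0.768. The log2 differences ran from -0.047 on chromosome XII to 0.16 on chromosome XI, with a median of 0.10, and 15 of 16 were positive. Their standard errors were 0.16 to 0.18. The chromosomes of a culture share its genome-wide level, so that their common sign restates the genome-wide difference.

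Chromosome XI had the highest scaled recovery in rec8, and its WT mean was also the highest of all chromosomes. Its ratio was 1.53 and 1.58 in rec8 and 1.30, 1.63 and 1.28 in WT replicates 1 to 3, with rec8 again between WT replicate 2 and the other WT cultures. Chromosome IV, the longest by input share, gave 1.46 and 1.50 in rec8 and 1.29, 1.59 and 1.24 in WT. Of the 3 shortest chromosomes, I gave 1.37 and 1.46 in rec8 and 1.18 to 1.52 in WT. Chromosome III gave 1.44 and 1.51 in rec8 and 1.25 to 1.53 in WT, and chromosome VI gave 1.35 and 1.40 in rec8 and 1.19 to 1.46 in WT. All of these showed the same order of cultures.

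Chromosome XII, home of the ribosomal DNA array, had the lowest scaled recovery in both rec8 cultures. The same held in WT replicates 2 and 3 and in both spo11 cultures, but not in WT replicate 1. The ratio of chromosome XII was 1.11 and 1.17 in rec8 and 1.23, 1.27 and 1.04 in WT replicates 1 to 3. Here both rec8 cultures lay below WT replicate 1, which they exceeded on the other chromosomes. The S288c counterpart moved with this: the log2 of its ChIP share over its input share was 0.20 in both rec8 cultures, 0.15 in WT replicates 2 and 3, and -0.033 in WT replicate 1. With the S288c total as offset, which includes chromosome XII, the rec8 log2 difference of XII was 0.065, against -0.047 with its counterpart. The SK1 share difference of XII, which uses no S288c reads, was -0.021. Beyond this, the part of the S288c repeats in the value of chromosome XII was not tested.

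**Figure D2:**
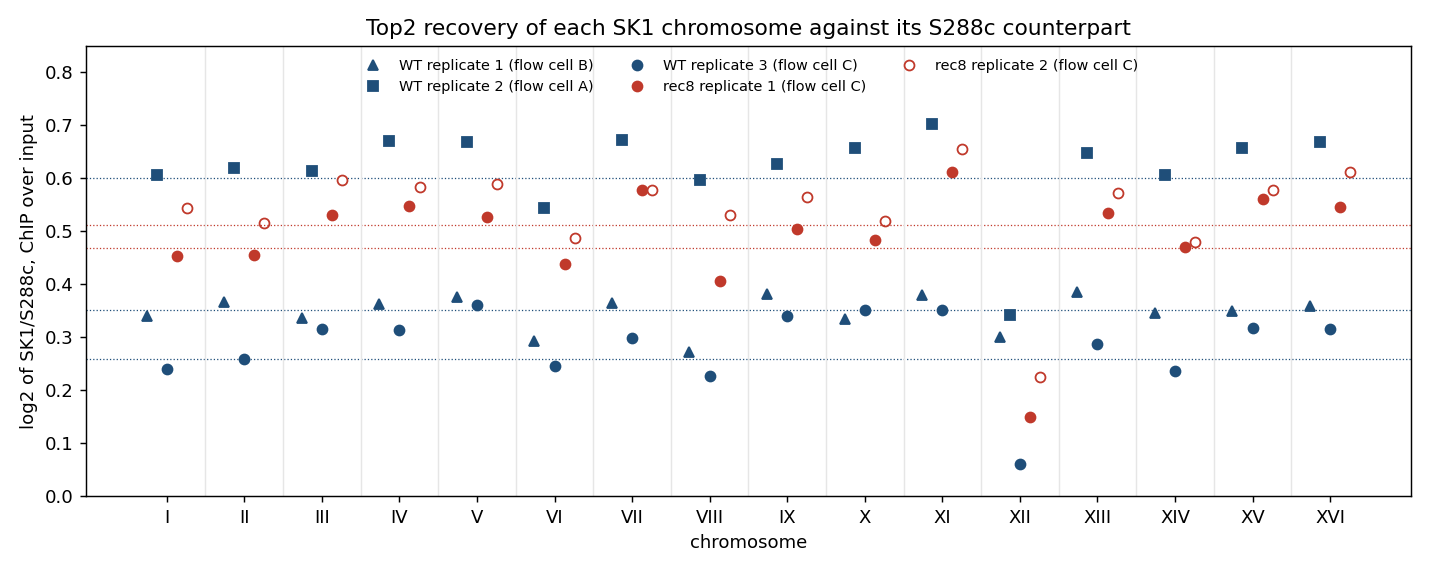
Log2 of the SK1 to S288c ratio in ChIP over input for each chromosome and culture, with symbols by flow cell and colours by group (WT blue, rec8 red) and dotted lines at each culture's genome-wide value. The rec8 cultures overlap the WT range on all 16 chromosomes and lie above WT replicate 3, of the same flow cell, on all 16.

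On flow cell C alone, both rec8 cultures exceeded WT replicate 3 on all 16 chromosomes. The spo11 culture of that flow cell also exceeded WT replicate 3 on all 16, so this was not particular to rec8. The rec8 log2 differences ran from 0.13 on chromosome XII to 0.28 on chromosome XI, with a median of 0.24. In edgeR's test, 8 of 16 chromosomes passed an adjusted p of 0.05 (50% of those tested), all higher in rec8, and the lowest adjusted p was 0.0102. This fit has 1 WT culture, which is assumed to vary as the rec8 cultures do, and it counts 1 genome-wide difference on every chromosome. With WT replicate 2 left out of the full set, 15 of 16 were called, all except XII.

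How the recovered SK1 DNA was divided among chromosomes followed a like pattern in rec8 and WT. For each culture, the share of a chromosome among SK1 ChIP reads was divided by its share among SK1 input reads, which removes the genome-wide level. In both groups, chromosomes VI, VIII, X, XII and XIV were under-represented in the Top2 ChIP and chromosomes V, VII, XI, XV and XVI over-represented, in all 5 cultures. In rec8 the mean log2 values ran from -0.10 on chromosome XII to 0.10 on chromosome XI, and in WT from -0.083 on chromosome XII to 0.059 on chromosome V. Over the 16 chromosomes, the rec8 mean and the WT mean correlated with r = 0.940, as a description without a test. Single rec8 and WT cultures correlated with r of 0.793 to 0.963, and WT cultures among themselves with 0.799 to 0.936. The rec8 cultures, which share a flow cell, correlated with r = 0.967.

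Differences in the share of single SK1 chromosomes were small. In edgeR's test of the 5 cultures, 0 of 16 chromosomes had an adjusted p below 0.05 (0%) and 1, chromosome XI, had an unadjusted p below 0.05. In DESeq2, chromosomes III and XI passed, both higher in rec8. In edgeR without the lower limit on the dispersion, I, III and XI passed (adjusted p = 0.0389), all higher in rec8. That fit gave no valid test statistic on 1 of 16 chromosomes, so its calls are uncertain. The rec8 and WT cultures did not overlap on 3 of the 16 chromosomes, III and XI with higher and II with lower values in rec8. This is 18.75% of the SK1 chromosomes, against 20% (3 of 15) of the S288c control chromosomes.

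Chromosome XI had log2 values of 0.11 and 0.094 in rec8 and of 0.036, 0.075 and 0.046 in WT replicates 1 to 3. All rec8 values exceeded all WT values. The difference was 0.048 (SE 0.017, edgeR adjusted p = 0.133), and it was 0.054 within flow cell C (adjusted p = 0.179). Its input moved the other way, with 5.22% and 5.21% of SK1 input reads in rec8 and 5.30% to 5.37% in WT, and its share of SK1 ChIP reads overlapped, at 5.62% and 5.56% in rec8 and 5.48% to 5.58% in WT. Without input correction, the difference of chromosome XI was 0.017 (edgeR adjusted p = 0.765). Beyond this, the part of the input in the difference was not tested.

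Among the short chromosomes, III had log2 values of 0.077 and 0.043 in rec8 and of 0.0083, 5.4e-06 and 0.029 in WT replicates 1 to 3. Its difference was 0.048 (SE 0.025, edgeR adjusted p = 0.274), 0.031 on flow cell C, 0.031 without rec8 replicate 1 and 0.023 without input correction. Its share of SK1 input reads was 2.25% and 2.23% in rec8, below all WT values, which ran up to 2.31%, and its share of SK1 ChIP reads overlapped between the groups. Chromosome I showed a difference of similar size, 0.051 (SE 0.028, edgeR adjusted p = 0.274), the most positive of the 16, but its values overlapped. It had 0.047 and 0.081 in rec8 and -0.0060, -0.0080 and 0.057 in WT replicates 1 to 3, so that the culture on the flow cell of the rec8 libraries lay with them, and the difference on flow cell C was 0.0066. With WT replicate 3 left out it was 0.071 and passed edgeR's test (adjusted p = 0.0263). With that culture left out, the S288c control copy of chromosome I also passed, higher in rec8 (edgeR adjusted p = 0.0362). Chromosome VI was lower than the genome in all cultures, with a difference of -0.013 (edgeR adjusted p = 0.855).

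The most negative difference was that of chromosome II, -0.032 (SE 0.016, edgeR adjusted p = 0.274). Its log2 values were -0.032 and -0.029 in rec8 and 0.023, -0.0045 and -0.016 in WT, so that all rec8 values lay below all WT values. The difference was -0.014 on flow cell C and -0.020 without WT replicate 1. Chromosome IV had 0.0020 and 0.00074 in rec8 and -0.0069 to 0.015 in WT, and its share was near that of the input in both groups. Chromosome XII had -0.12 and -0.086 in rec8 and -0.085, -0.11 and -0.053 in WT. Its difference was -0.021 (edgeR adjusted p = 0.560). It was -0.052 on flow cell C (adjusted p = 0.0570), -0.0029 without rec8 replicate 1, -0.040 without rec8 replicate 2, -0.035 without WT replicate 2 and -0.0067 without WT replicate 3. On that flow cell 0 of 16 chromosomes passed (0%), and 2, XI and XII, had an unadjusted p below 0.05.

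The S288c chromosomes come from the added cells, which the labels describe alike for all samples, and they served as control. Over 15 of them, without XII, edgeR's test called 1 chromosome (6.67%), where the SK1 chromosomes had 0. It was chromosome X, with log2 values of -0.021 and 0.0060 in rec8 and of -0.054, -0.070 and -0.076 in WT. Both rec8 values lay above all WT values, and the difference was 0.057 (SE 0.016, edgeR adjusted p = 0.0108). This exceeds every SK1 share difference. The call was lost in 10 of 13 alternatives, among them DESeq2 (adjusted p = 0.959) and the fits without WT replicate 1 (0.0755), WT replicate 2 (0.0908), WT replicate 3 (0.0502) or rec8 replicate 2 (0.175). On flow cell C, 0 of 15 passed (0%), with the difference of chromosome X at 0.068 (adjusted p = 0.778).

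In the main edgeR fit of all 5 cultures, the other 14 S288c chromosomes did not pass the test. S288c chromosome I had log2 values of 0.11 and 0.095 in rec8 and of 0.0016, 0.025 and 0.11 in WT replicates 1 to 3. As on SK1 chromosome I, WT replicate 3 lay with the rec8 cultures. The difference for the S288c copy was 0.064 (SE 0.032, edgeR adjusted p = 0.253), against 0.051 for the SK1 copy. For chromosome III it was 0.015 on the S288c copy, for chromosome IV -0.011 and for chromosome VI -0.0074. Over all 15, the differences ran from -0.025 to 0.064, against -0.032 to 0.051 over the 16 SK1 chromosomes.

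**Figure D3:**
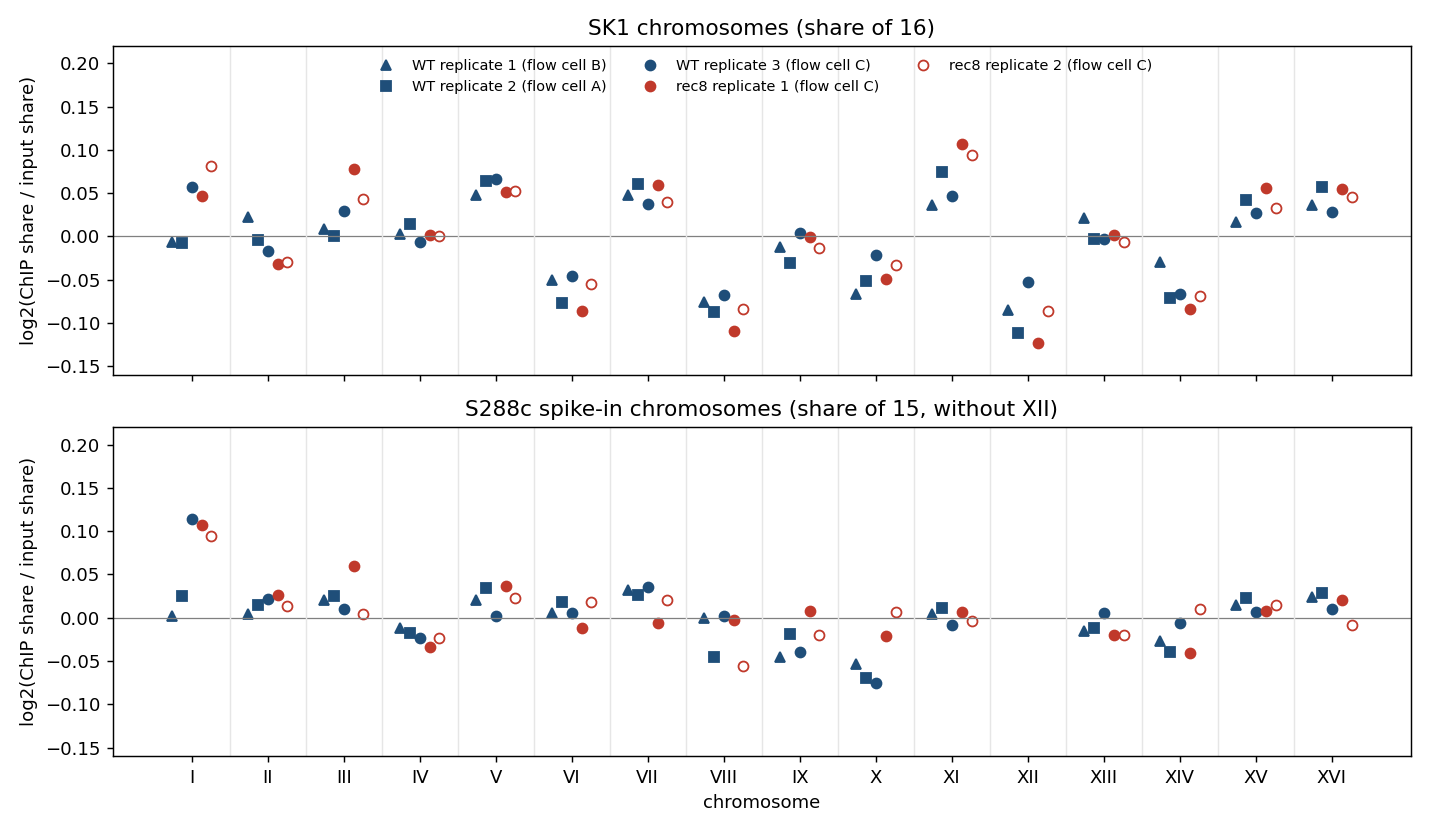
Log2 of each chromosome's share of ChIP reads over its share of input reads, for SK1 (top) and the S288c spike-in (bottom), with 1 point per culture (WT blue, rec8 red, symbols by flow cell). The SK1 pattern, low on VI, VIII, X, XII and XIV and high on V, VII, XI, XV and XVI, is seen in every culture. In the main edgeR fit of all 5 cultures, S288c chromosome X is the only one called (rec8 above WT by 0.057).

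The input libraries were tested in the same way, since a chromosome with another share of the input would move the ratio. The SK1 input shares of rec8 and WT did not overlap on 37.5% of the 16 chromosomes, 3 higher and 3 lower in rec8. For the S288c input shares this was 6.25%. In edgeR's test of SK1 input shares, 0 of 16 chromosomes passed (0%), and 1, chromosome XI, had an unadjusted p below 0.05. Its log2 difference was -0.031 (SE 0.011, adjusted p = 0.626), the most negative, and it passed without WT replicate 1 (-0.025, adjusted p = 0.0384). Chromosome VI had the most positive one, 0.086, which rested on WT replicate 1: VI took 3.71% and 3.61% of SK1 input reads in rec8, and 3.01%, 3.65% and 3.69% in WT replicates 1 to 3. Without that culture the difference was -0.0050. On flow cell C, in a fit with 1 WT culture and the dispersion at its lower limit, 2 of 16 passed (12.5%). These were chromosome V, higher in rec8 by 0.040 (edgeR adjusted p = 0.000346), and chromosome XI, with a log2 difference of -0.026 (adjusted p = 0.0114). Against all 3 WT cultures the difference of chromosome V was 0.020 (adjusted p = 0.626).

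The relation of Top2 recovery to chromosome size overlapped between the rec8 and WT cultures. The slope of the log2 share ratio on the log10 of chromosome size, taken as the mean SK1 input share, was -0.025 and -0.045 per 10-fold size in rec8. In WT replicates 1 to 3 it was 0.035, 0.058 and -0.031. WT replicate 3, on the flow cell of the rec8 libraries, lay between the rec8 cultures, and the groups overlapped. The difference was -0.056 (two-sided exact permutation test, p = 0.4, n = 2 against 3), and -0.0037 on flow cell C. Over the S288c chromosomes the slopes were -0.099 and -0.059 in rec8 and 0.0068, -0.017 and -0.057 in WT. That difference was -0.057 (exact permutation test, p = 0.2, the smallest possible), and -0.022 on flow cell C. For the spo11 cultures on flow cells B and C, the SK1 slopes were 0.034 and -0.045 and the S288c slopes -0.110 and -0.132. Without chromosomes I, III and VI, the SK1 difference was -0.0045 and the S288c difference -0.083. The slope of the SK1 to S288c ratio itself differed by -0.018 over 16 chromosomes and by 0.011 without chromosome XII, the latter chosen after seeing the data.

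The short chromosomes I, III and VI were also averaged, although VI lay below its input share in all 5 cultures. Their mean log2 share ratio less that of the other 13 was 0.017 and 0.027 in rec8 and -0.013, -0.025 and 0.016 in WT replicates 1 to 3. The groups did not overlap, by a margin of 0.0019 between rec8 replicate 1 and WT replicate 3. The difference was 0.030 (two-sided exact permutation test, p = 0.2, the smallest possible), and 0.0069 on flow cell C. Without chromosome XII it was 0.028 and the groups overlapped (exact permutation test, p = 0.4). Over all chromosomes, the same measure was 0.033 in the spo11 culture on flow cell C, above both rec8 values, and -0.0077 in that on flow cell B.

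**Figure D4:**
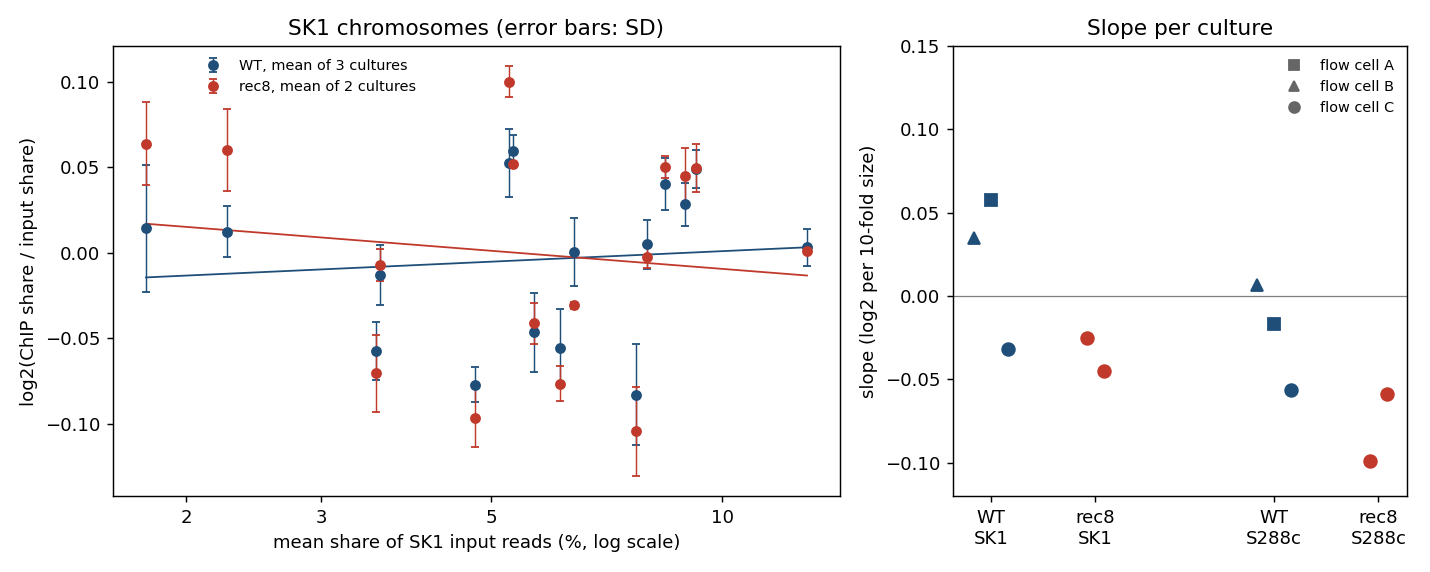
Left, log2 of the ChIP share over the input share of each SK1 chromosome against its size as a share of SK1 input reads (log axis), with group means, SD and least-squares lines. Right, the slope in each culture for SK1 and S288c, where WT replicate 3 (flow cell C, -0.031 for SK1) lies with the rec8 cultures (-0.025 and -0.045).

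The evenness of recovery along the karyotype differed little. The SD over the 16 chromosomes of the log2 SK1 to S288c ratio was 0.11 and 0.096 in rec8, and 0.033, 0.083 and 0.074 in WT replicates 1 to 3. Both rec8 values were above all WT values, by 0.037 on average (two-sided exact permutation test, p = 0.2, the smallest possible), and by 0.027 on flow cell C. The wider spread was not particular to rec8. The spo11 culture on flow cell C gave 0.109, beside 0.106 and 0.0957 in rec8, and that on flow cell B gave 0.0539. Without chromosome XII the values were 0.058 and 0.048 in rec8 and 0.032, 0.040 and 0.046 in WT, and the difference was 0.013. Most of the difference in spread thus lay on chromosome XII.

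The deposited Top2 peak list, which merges replicates of WT libraries at 3 h made without spike-in, gave the share of each chromosome covered by peaks, from 15.1% on chromosome VI to 18.8% on chromosome V. Chromosomes VI and V were also low and high in the share of the Top2 ChIP in all 5 cultures, whereas XIV, with a coverage of 18.1%, was low in all of them and XI, with 16.8%, was high. Over the 16 chromosomes the correlation of peak coverage with the log2 share ratio was 0.195 for rec8 and 0.445 for WT, given as descriptions over chromosomes that share libraries, with no test. The rec8 less WT difference of the share ratio correlated with coverage at -0.327 over all 5 cultures. Against WT replicate 3 alone, on the same flow cell, the sign turned, at 0.127.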

How the data were processed

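Samples were grouped by their titles. The series design speaks of biological replicates, but the labels do not name separate cultures, so p-values may measure only the spread between these samples. The authors deposited raw read counts for each chromosome of a joint S288c and SK1 reference. Bowtie and MACS2 2.1.1 are named in the submitters' processing notes, while the aligner's settings and the S288c build are not given in the sources used here. Per the labels, reads were single-end, yet the counts of 1 flow cell are all even, so its counting errors may be understated. Reads carry no molecular identifiers, and intervals (Clopper-Pearson) cover counting error only. The 8 pairs of replicate libraries all differed by more than sampling noise (chi-square of at least 412).

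Ratios were compared over cultures by two-sided exact permutation tests (scipy 1.17.1, Python 3.11.15). The quasi-likelihood test of edgeR 4.0.16 (R 4.3.3) was run over chromosomes on the interaction of ChIP and group, with cultures as further terms. The offset was the S288c count of the same chromosome, or the SK1 or S288c total for shares. The dispersion was not allowed below 0.0001, a floor taken from earlier work on these counts. S288c chromosome XII was left out of the control. DESeq2 1.42.0 and limma 3.58.1 were alternatives. The other alternatives changed the normalization, chromosomes, cultures and flow cells used. The spike-in ratio, the exact permutation test and the main edgeR fits were tested on simulated data. Peak starts and ends from the deposited MACS2 lists served only for coverage and length. Named were chromosomes I, III, IV, VI and XII, and every chromosome called in a test or, with none, the most positive and most negative. Chromosomes that only did not overlap, or were named by flow cell C or input tests, were picked after their values were seen. The comparison, lists and tests were chosen with earlier results of these data known.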

Additional observations from a re-analysis of the deposited data

How the results depend on the processing

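The genome-wide log2 difference between rec8 and WT was 0.014 to 0.18 with 1 culture left out in turn, and it reversed to -0.30 without input correction. Against spo11 it was -0.065 to 0.16 with cultures left out, reversing without spo11 replicate 1, and -0.23 without input correction. The S288c size slope difference reversed to 0.017 with chromosome XII, and the SK1 slope difference against S288c without chromosome XII, chosen after seeing the data, to 0.011. Chromosomes called for the SK1 to S288c ratio numbered 8 on the same flow cell and 0 to 15 with cultures left out. Called SK1 shares numbered 2 in DESeq2 and 0 to 1 with cultures left out. They numbered 3 without the dispersion floor, where 1 of 16 chromosomes had no valid test statistic. Called S288c shares numbered 0 in DESeq2, with chromosome XII, without input correction, on the same flow cell and with the replicate block, and 0 to 1 with cultures left out. The called S288c chromosome was I, not X, without WT replicate 3. Without the dispersion floor it was VII, lower in rec8, and 1 of 15 chromosomes had no valid test statistic. Called input shares numbered 2 on the same flow cell and 0 to 1 with cultures left out. The SK1 to S288c log2 difference of chromosome XII reversed to 0.065 with the S288c total as offset and 0.13 on the same flow cell, and was -0.13 to 0.0060 with cultures left out, reversed without WT replicate 2. With the S288c total as library size, the share difference of chromosome II reversed to 0.055 and that of XII to 0.065, and the input difference of VI reversed to -0.012 on the same flow cell and was -0.0050 to 0.14 with cultures left out, reversed without WT replicate 1. With replicate number as a block, which also leaves out WT replicate 3, the genome-wide difference was 0.014, the same as without that culture alone. Cultures of equal number lay on different flow cells, and their deviations correlated at -0.18 and -0.21. With 1 culture of each group per number, these values cannot show whether the cultures were paired. The block changed no other call than S288c chromosome X. The cause of these shifts was not tested. With 2 and 3 cultures, the exact tests could not reach p = 0.05.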
